A study of Mus musculus with 2 samples.

Results

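The mitotic genes described here are 36 genes, chosen by name, whose products carry a cell through chromosome segregation and cytokinesis. All 36 were found among the 32285 genes of the count files of mouse plantaris muscle. The list was matched by symbol to the Ensembl identifiers in both files. Male C57BL/6 mice (C57BL/6J in the design text), 12 weeks old, had the plantaris of one side subjected to tenotomy, the cutting of a tendon. The contralateral plantaris of the same mice was the sham control, and the labels and design text do not name the tendon. After 4 days the muscles of 5 mice were pooled within each group, digested with collagenase, and sorted for living cells that took up Calcein AM and excluded propidium iodide. Each pool gave 1 droplet-based 3' single-cell library, so no animal can be told from another, no test between conditions is possible, and every interval printed covers counting error only.

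Cells entering mitosis build up transcripts of this set in G2 phase and destroy many of the proteins as they exit. Cdk1 with its cyclins triggers entry, the Aurora and Polo kinases organise the spindle, the kinetochore ties chromosomes to microtubules, and the spindle checkpoint holds the anaphase promoting complex until every chromosome is attached. In resting adult muscle most cells are out of cycle, while injury or loading brings stem cells, mesenchymal cells, endothelial cells and macrophages back into it.

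Many promoters of late cell cycle genes carry a cell cycle homology region, with the core TTTGAA, that binds the DREAM and MuvB complexes, together with CCAAT boxes that bind the factor NF-Y. RefSeq promoters of the GRCm38.p6 assembly, running from 250 bases before to 50 after the start, were matched by symbol for 32 of the 36 genes. TTTGAA, read on both strands, was present in 24 of the 32 genes (75.0%) against 20.2% of all 27025 genes in the table. CCAAT, also on both strands, was present in 24 of the 32 (75.0%) against 41.1% of all genes. Both motifs stood together in 20 of the 32 (62.5%) against 7.97%. These are letter matches, not evidence of binding. The 120 bases before the start are shown for 6 genes that span the range of motif content. In these windows Cdk1, Cdc20, Ube2c and Top2a hold both motifs, Ccnb2 holds 3 CCAAT boxes and no TTTGAA, and Birc5 holds neither. The full promoter of Ccnb2 holds 2 copies of TTTGAA, both outside its printed window. Ccnb2 is therefore among the 24 genes with this motif. Each window runs 5′ to 3′ on the strand of its gene, and capitals mark TTTGAA or TTCAAA and CCAAT or ATTGG.
Cdk1: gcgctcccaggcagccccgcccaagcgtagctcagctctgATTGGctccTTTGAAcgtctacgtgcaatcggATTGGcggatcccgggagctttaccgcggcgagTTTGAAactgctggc
Cdc20: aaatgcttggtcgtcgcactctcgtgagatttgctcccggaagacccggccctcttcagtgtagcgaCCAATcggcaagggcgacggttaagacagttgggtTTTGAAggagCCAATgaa
Ube2c: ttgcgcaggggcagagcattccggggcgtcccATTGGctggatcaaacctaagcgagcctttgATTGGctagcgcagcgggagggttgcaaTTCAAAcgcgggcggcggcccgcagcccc
Top2a: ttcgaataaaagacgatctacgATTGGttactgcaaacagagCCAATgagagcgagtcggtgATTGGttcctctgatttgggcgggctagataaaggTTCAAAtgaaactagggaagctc
Ccnb2: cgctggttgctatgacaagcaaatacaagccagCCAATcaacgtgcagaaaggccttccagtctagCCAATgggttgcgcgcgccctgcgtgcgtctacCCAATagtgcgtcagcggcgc
Birc5: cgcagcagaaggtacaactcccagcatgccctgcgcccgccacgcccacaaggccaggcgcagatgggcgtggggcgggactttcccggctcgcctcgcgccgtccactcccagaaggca
On mm10 these windows lie at chr10:69352913-69353032 (minus strand) for Cdk1, chr4:118437344-118437463 (minus) for Cdc20, chr2:164769809-164769928 (plus) for Ube2c, chr11:99024190-99024309 (minus) for Top2a, chr9:70421555-70421674 (minus) for Ccnb2 and chr11:117849117-117849236 (plus) for Birc5.

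The sham library held 8463 barcodes with 47781353 unique molecular identifiers (UMIs, one per captured transcript), and the tenotomy library 11950 barcodes with 94556283 UMIs. After filters and removal of 190 and 291 barcodes scored as doublets, 7548 cells of the sham library (median 4857.5 UMIs) and 10946 of the tenotomy library (median 5863) remained. Clustering without the mitotic genes and without other listed cell cycle genes gave 35 clusters. Of these, 8 (481 sham and 402 tenotomy cells) stayed unnamed, and the rest were given 14 class names from marker genes. The names are rebuilt from these data, not the authors', and each means "like" that cell type. The sort took any living mononuclear cell, so the sizes of classes also reflect digestion and sorting. The libraries shared 29 barcodes among kept cells.

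A cell was called mitotic when it held at least 2 UMIs of 31 of the genes after random thinning to 1000 UMIs, which puts cells of unequal depth on one footing. The word names this call, not a measured phase of the cell cycle. Bub3, Smc4, Cks2, Ckap2 and Tacc3 were left out of the call because resting cells also express them. By this call, 48 of 7296 sham cells carried mitotic transcripts, or 0.658% (exact Clopper-Pearson 95% interval 0.485 to 0.871). In the tenotomy library 988 of 10467 did, or 9.44% (8.89 to 10.0). The share was 14.3 times as high after tenotomy (95% interval 10.8 to 19.1). The size of this ratio depended on the call: it was 4.40 with at least 1 UMI, 5.43 with all 36 genes and 34.9 with at least 3 UMIs. Without thinning the shares were 4.64% and 31.02%. Without the erythroid, neutrophil lineage and B lineage classes, which can hold blood and marrow precursors, the shares were 0.435% and 8.17%, a ratio of 18.8. Had the sham library kept its own mix of classes but taken the tenotomy share within each class, the share would have been 8.55%, and the tenotomy mix with the sham shares would have given 3.56%. No interval was computed for these 2 values. The 3.56% rests in part on small sham classes. Among them, the dendritic share of 25% comes from 28 sham cells, while this class made up 6.10% of the tenotomy cells.

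Nearly every mitotic gene was higher in the tenotomy library as a whole. Of the 36 genes, 35 were at least 2-fold higher in counts per 1000000 UMIs (CPM), and none was 2-fold lower. Of all 16495 measured genes, 13.8% passed the same limit upward and 21.5% downward. A gene counted as measured with at least 25 UMIs over both libraries. The median log2 fold change was 3.09 for the 36 genes and -0.12 for all measured genes. Plk1, the Polo kinase, stood at 0.632 CPM in sham cells and 11.5 in tenotomy cells, 18.2-fold higher (12.5 to 27.5). Cdca3, which helps trigger mitotic entry, went from 2.75 to 49.1 CPM, 17.8-fold. Mki67, which coats mitotic chromosomes, stood at 10.9 and 102 CPM, 9.29-fold apart (8.48 to 10.2), with a UMI in 0.994% of sham and 17.2% of tenotomy cells. The smallest differences were those of 3 genes. Bub3, a checkpoint protein, stood at 52.0 and 72.0 CPM (1.38-fold), Smc4, a condensin subunit, at 45.1 and 99.97 CPM (2.22-fold), and Kif23, a kinesin of the cytokinetic midbody, differed 2.71-fold. The files count one transcript end per UMI, so CPM does not grow with gene length. Ccnb1 and Ccnb2 have pseudogenes named after them, and reads shared with those copies make their levels uncertain.

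Ranked by the share of mitotic cells in the tenotomy library, the Erythroid class came first with 92 of 130 cells (70.8%, 62.2 to 78.4). Muscle stem cells followed with 166 of 520 (31.9%, 27.9 to 36.1). The next 3 classes did not differ beyond their counting intervals: B lineage cells at 15.3% (11.3 to 20.2), mesenchymal progenitors at 15.2% (13.5 to 17.0) and the neutrophil lineage at 13.5% (10.8 to 16.5). Dendritic cells at 6.89%, T or natural killer cells at 6.11%, monocytes and macrophages at 5.25% (4.60 to 5.97) and pericytes or smooth muscle cells at 4.17% (1.82 to 8.04) also had overlapping intervals. Blood endothelial cells reached 2.78% (1.98 to 3.80) and tenocytes 1.49%. No mitotic cell was found among 42 myofibre-like or 42 Schwann-like cells, for which 3 counts of the total would be 7.14% and the exact 95% interval reaches 8.41%. By number, mesenchymal progenitors supplied 26.9% of the 988 mitotic cells, monocytes and macrophages 22.8%, and muscle stem cells 16.8%.

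In the sham library the order was different. The highest shares were 25% of 28 dendritic cells (10.7 to 44.9) and 14.8% of 88 neutrophil lineage cells (8.11 to 23.9). The stromal classes were near 0: 3 of 1831 mesenchymal progenitors (0.164%), 3 of 496 muscle stem cells (0.605%), 5 of 3167 endothelial cells (0.158%) and 0 of 407 tenocytes, for which 3 counts would be 0.737% and the exact interval reaches 0.902%. The tenotomy share was 92.8 times the sham share in mesenchymal progenitors (29.8 to 289), 52.8 times in muscle stem cells (17.0 to 164) and 17.6 times in endothelial cells (6.95 to 44.7). These ratios rest on 3 to 5 sham cells, and their size depended on the call. The mesenchymal ratio was 10.7 with at least 1 UMI, 28.4 with all 36 genes and 290 with another random draw of the thinned UMIs. The muscle stem cell ratio was 14.9 with at least 1 UMI. The endothelial ratio was 1.95 with at least 1 UMI, 2.12 with all 36 genes and 6.72 with cells thinned to 2000 UMIs. The neutrophil lineage ratio was 0.913 (0.531 to 1.57), but 1.87 (0.773 to 4.52) with at least 3 UMIs and 2.25 (1.20 to 4.22) with cells thinned to 2000 UMIs. Thinning to 2000 UMIs leaves out every cell under that depth. The median of this lineage was 1875.5 UMIs in tenotomy and 4094.5 in sham, so the 2.25 covers a different set of cells. The part of the left-out cells in this ratio was not tested. In the cluster of mature neutrophils, a cell type that has left the cell cycle, the call was met by 3 of 292 tenotomy cells (1.03%, median 1259 UMIs) and 2 of 41 sham cells (4.88%, 0.596 to 16.5, median 3816 UMIs).

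**Figure D1:**
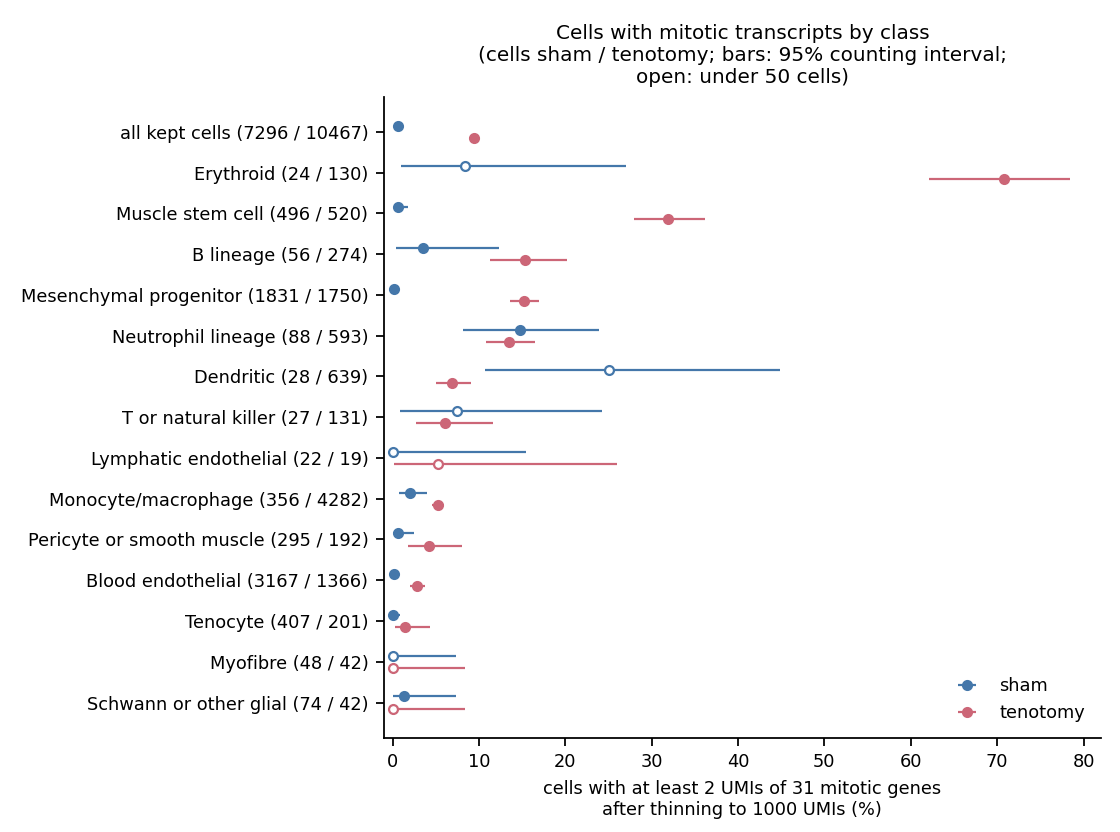
Share of cells with at least 2 UMIs of the 31 mitotic genes after thinning to 1000 UMIs, by class (rows), in sham and tenotomy; bars are 95% counting intervals and open points mark classes under 50 cells. Muscle stem cells stand at 0.605% in sham and 31.9% in tenotomy, while the neutrophil lineage stands at 14.8% and 13.5%. The neutrophil order turned with cells thinned to 2000 UMIs, which leaves out cells under that depth.

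Mesenchymal progenitors, the fibroblast-like cells that deposit muscle matrix, had 35 of 36 mitotic genes at least 2-fold higher after tenotomy, against 15.8% of all measured genes in this class, and none 2-fold lower, against 19.2%. The median log2 fold change was 4.40 for the mitotic genes and -0.06 for all genes. Summed over the 31 genes of the call, the level was 47.9 CPM in the sham cells and 1104 in the tenotomy cells, 23.0-fold higher (21.4 to 24.8). Most of the sham cells of this class lay in clusters 10, 5 and 8, led by Smoc2, Pi16 and Sfrp4, and most of the tenotomy cells in cluster 33, led by Postn and Tnc. The libraries are thus compared across different mesenchymal clusters.

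Among the chromosome genes in mesenchymal progenitors, Top2a, the topoisomerase that untangles sister chromatids, stood at 2.05 CPM in the sham cells and 85.2 in the tenotomy cells (41.6-fold, 29.6 to 60.6). Mki67 stood at 1.92 and 76.4 CPM (39.7-fold, 27.9 to 58.6), with a UMI in 0.436% and 26.5% of cells. Smc4 stood at 24.2 and 89.2 CPM, a smaller difference of 3.68-fold. Of the genes around Cdk1, Cdk1 itself went from 1.30 to 46.4 CPM (35.6-fold) and Ccna2, the S and G2 phase cyclin, from 0.620 to 29.4 CPM (47.4-fold). Cks2, a Cdk1-binding subunit, had the highest CPM of the set in tenotomy, 110 against 17.0 in sham (6.48-fold, 5.73 to 7.35). All 5 genes of this role were higher.

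All 5 genes of the kinases and the chromosomal passenger complex were higher in mesenchymal progenitors. Plk1 had 3 sham and 457 tenotomy UMIs, a ratio of 78.8 in CPM (26.8 to 383). Birc5, the survivin subunit of the passenger complex, stood at 3.22 and 98.0 CPM (30.4-fold, 23.1 to 40.8). In the checkpoint group, Bub1, a kinase that recruits checkpoint proteins to kinetochores, had 1 sham UMI and 316 tenotomy UMIs, a ratio of 163 (29.1 to 6476). Cdca3 stood at 0.682 and 68.5 CPM, 100-fold apart (56.0 to 202). Bub3, at 39.7 and 63.0 CPM, was the only gene of the 36 under 2-fold in this class (1.59-fold, 1.45 to 1.74). Cenpa, the histone variant that marks centromeres, stood at 3.97 and 102 CPM (25.8-fold). Among the spindle genes, Tpx2, which activates Aurora A, had the largest fold, 61.0, and Nusap1, a microtubule bundler, the smallest, 2.91 against 14.7 CPM (5.03-fold).

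Within the tenotomy mesenchymal progenitors the mitotic cells were unevenly spread. Cluster 33 held 252 mitotic cells of 1276 (19.7%, 17.6 to 22.0), against 7 of 203 (3.45%) in cluster 5, 7 of 240 (2.92%) in cluster 8 and 0 of 31 in cluster 10. Gating each cell on state markers put Postn/Tnc first among the named states as well. Cells with Postn/Tnc transcripts were mitotic in 21.1% of 979, Pi16/Dpp4 cells in 7.62% of 315 and Smoc2/Cxcl14 cells in 3.82% of 314. Such a state is a range of marker levels, not a cell type, and 16, 13 and 31 cells lay near the limit of 3 marker UMIs. Cells given no state were mitotic in 23 of 142 (16.2%). Their interval, 10.6 to 23.3, overlapped that of the Postn/Tnc cells, 18.6 to 23.8. Before thinning, median depth was 22690 UMIs in Postn/Tnc, 8167 in Pi16/Dpp4 and 7148 in Smoc2/Cxcl14 cells, and 9541.5 in cells given no state. The part of depth in these shares beyond the thinning was not tested.

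Muscle stem cells, which rebuild and enlarge fibres, had all 36 mitotic genes at least 2-fold higher after tenotomy, against 35.5% of all measured genes in this class, with 11.5% of all genes 2-fold lower. The median log2 fold change was 4.92 for the mitotic genes and 0.52 for all genes. The summed level of the 31 genes was 79.95 CPM in the sham cells and 2689 in the tenotomy cells, 33.6-fold higher (29.8 to 38.1). Here too the libraries filled different clusters, with 495 of the sham cells in cluster 21 and 437 of the tenotomy cells in cluster 29, whose leading genes include Myog, Ttn and Tnnt2.

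Top2a had the highest tenotomy level in muscle stem cells, 340 CPM against 8.82 in sham (38.6-fold, 26.8 to 57.7). Smc4 followed at 238 against 69.0 CPM (3.45-fold) and Mki67 at 229 against 6.38 CPM (35.8-fold, 23.4 to 58.0), with a UMI in 39.1% of tenotomy cells and 0.803% of sham cells. The largest ratios came from genes nearly absent in sham. Ccna2 had 2 sham and 675 tenotomy UMIs, a ratio of 127 (34.9 to 1048). Hmmr, a spindle protein also known as a hyaluronan receptor, had 2 and 547, a ratio of 103 (28.3 to 850). Plk1 had 1 and 243, a ratio of 91.2 (16.2 to 3618). Ccnb1, the cyclin that drives entry into mitosis, had no sham UMI and 650 tenotomy UMIs, at least 81.3-fold higher with sham taken at 3 UMIs. The smallest differences were those of Bub3 (2.57-fold), Smc4 and Ttk, the checkpoint kinase Mps1, which differed 4.69-fold (2.29 to 11.2).

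All 166 mitotic muscle stem cells of the tenotomy library lay in cluster 29 (38.9% of 427, 34.2 to 43.7). Cluster 21 held none among its 93 tenotomy cells and 2 among its 493 sham cells. By state, 13 of 104 cells with differentiation transcripts (12.5%, 6.83 to 20.4) and 147 of 393 cells in neither state (37.4%, 32.6 to 42.4) were mitotic. Only 23 cells passed the limit for stem transcripts, of which 6 were mitotic, and 18 of them lay near it.

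Blood endothelial cells had 29 of 33 measured mitotic genes at least 2-fold higher, against 8.77% of all genes, and none 2-fold lower, against 8.55%. The median log2 fold change was 3.45 for the mitotic genes and -0.03 for all genes. Ttk, Kif2c and Nuf2 had too few UMIs to be measured, so these counts leave out 3 of the 36. The summed level was 51.7 CPM in the sham cells and 454 in the tenotomy cells (8.79-fold, 8.05 to 9.60). Mki67 stood at 0.664 and 43.9 CPM (66.1-fold, 33.1 to 155). Hmmr had 1 and 67 UMIs, a ratio of 137 (23.8 to 5505), and Cenpf, a kinetochore protein, had 3 and 118, a ratio of 80.6. Ndc80, which grips microtubules at the kinetochore, stood at 5.39 and 5.78 CPM (1.07-fold, 0.687 to 1.65), and Bub3, Cenpa and Smc4 were also under 2-fold. The highest tenotomy levels, Smc4 at 77.04 CPM, Cks2 at 75.9 and Bub3 at 75.0, belonged to genes left out of the call. With the mitotic cells left out of both libraries, 10 of the 22 genes still measured passed 2-fold upward. The share of all genes was not computed for this set of cells, which these same genes had selected.

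The endothelial mitotic cells of the tenotomy library lay mainly in cluster 2, with 31 of 920 cells (3.37%), which held 50 sham cells. Cluster 25, with 203 sham cells, had a like share, 3 of 83 (3.61%, 0.752 to 10.2). Clusters 0, 1 and 3, which held most sham endothelial cells, had 0 of 96, 0 of 89 and 0 of 113 in tenotomy. Cluster 13, led by the venular genes Selp and Ackr1, had 4 of 65 (6.15%, 1.70 to 15.01).

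**Figure D2:**
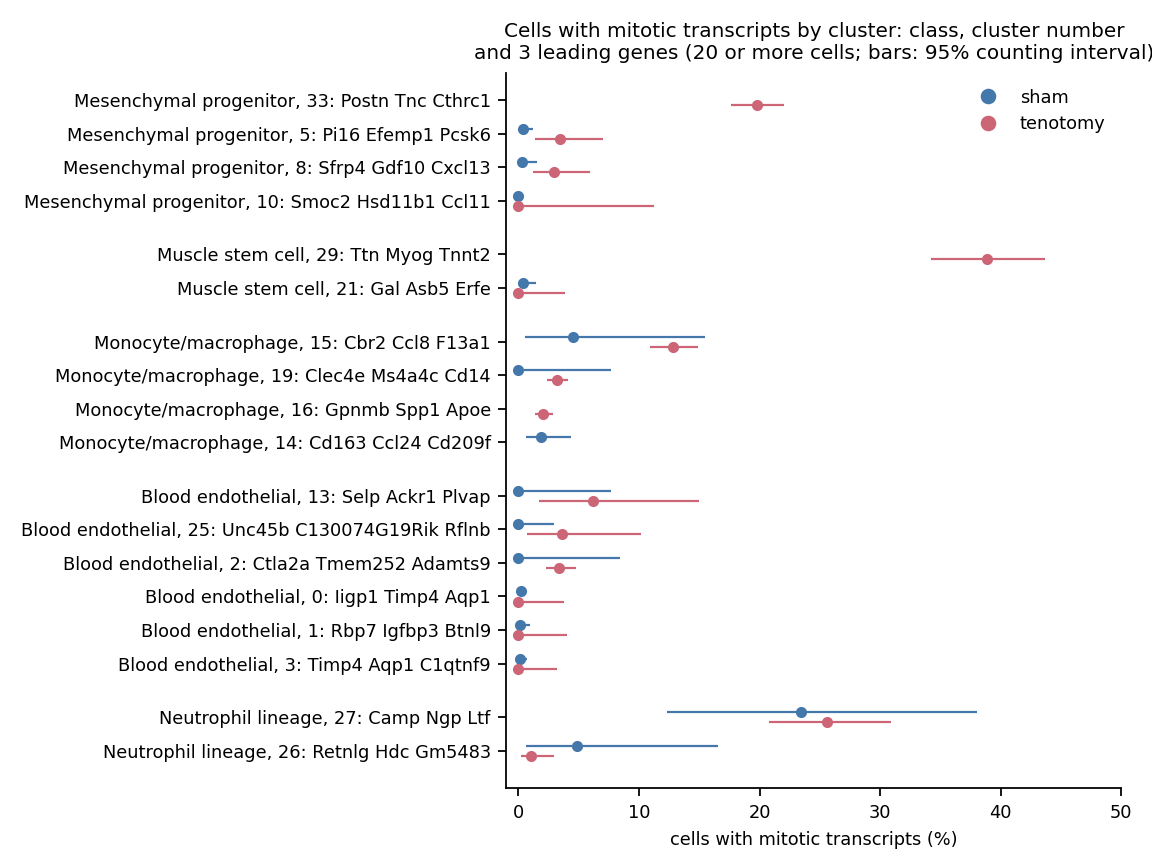
Share of cells with mitotic transcripts (horizontal axis, %) by cluster, sham and tenotomy, for clusters with at least 20 cells; bars are 95% counting intervals. Only clusters of mesenchymal progenitors, muscle stem cells, monocytes and macrophages, blood endothelial cells and the neutrophil lineage are drawn. The mesenchymal cluster led by Postn and Tnc stands at 19.7% and the macrophage cluster led by Cbr2 at 12.8% in tenotomy, above the other clusters of their classes with tenotomy cells.

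In monocytes and macrophages 31 of the 36 mitotic genes were at least 2-fold higher after tenotomy, against 7.64% of all genes, and none was 2-fold lower, against 15.8%. The median log2 fold change was 2.56 for the mitotic genes and -0.06 for all genes. The summed level was 127 CPM in the sham cells and 511 in the tenotomy cells (4.02-fold, 3.61 to 4.49). The count depended on how the class was drawn. It fell to 6 with clusters made with cell cycle genes, to 7 with a marker gate on single cells, and to 10 when dendritic cells were joined to the class. For these drawings the share of all genes was not computed. Joined, the summed level was 321 and 499 CPM (1.55-fold, 1.46 to 1.65) and the mitotic shares were 3.65% and 5.47%, a ratio of 1.499 (0.885 to 2.54). In sham the 375 cells of the class held 338 UMIs of the 31 genes, while 28 dendritic-like cells held 691.

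Hmmr had 1 sham and 224 tenotomy UMIs in macrophages, a ratio of 20.7 (3.68 to 822), and Cenpf had 2 and 411, a ratio of 19.0 (5.23 to 158). Tpx2 had 2 and 401, a ratio of 18.6. Mki67 stood at 10.9 and 64.7 CPM (5.93-fold, 4.12 to 8.88), with a UMI in 4.53% and 17.3% of cells. Kif23 was lower after tenotomy, 20.3 against 12.1 CPM (0.596, 0.447 to 0.810), and so was Cks2, 84.6 against 59.96 CPM (0.709, 0.616 to 0.818), both by less than 2-fold. Anln, the actin-binding anillin of the cleavage furrow, stood at 6.77 and 7.41 CPM. The highest tenotomy levels were Cenpa at 104 CPM, followed by Mki67 and Bub3.

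Cenpa also had UMIs in many tenotomy cells without the mitotic call. The share of such cells with a UMI was 61.2% of 595 dendritic cells, 33.2% of 4057 macrophages, 30.9% of T or natural killer cells, 23.3% of B lineage cells, 22.8% of mesenchymal progenitors and 19.8% of muscle stem cells. It was 9.75% in the neutrophil lineage, 3.01% in endothelial cells and 2.63% in erythroid cells. These shares count UMIs before thinning, so they also follow depth. As CPM in the same cells the order differed. Cenpa stood at 215 in T or natural killer cells, 183 in dendritic cells, 124 in B lineage cells and 84.4 in macrophages. It stood at 51.8 in mesenchymal progenitors, 45.1 in muscle stem cells, 44.3 in the neutrophil lineage, 8.05 in endothelial cells and 6.56 in erythroid cells. Cenpa made up 47.0% of the UMIs of the 31 genes in tenotomy dendritic cells, 29.7% in T or natural killer cells and 20.3% in macrophages, against 9.27% in mesenchymal progenitors, 5.93% in the neutrophil lineage and 5.72% in muscle stem cells. With Cenpa removed from the call, 4.09% of tenotomy macrophages were mitotic instead of 5.25%, and 2.504% of dendritic cells instead of 6.89%. Muscle stem cells then stood at 30.2%, mesenchymal progenitors at 13.5%, and the ratio over all cells at 15.6.

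Cluster 15 of the macrophages, led by Cbr2, Ccl8 and F13a1, held 141 mitotic cells of 1101 in tenotomy (12.8%, 10.9 to 14.9). Cluster 16, led by Gpnmb and Spp1, held 29 of 1430 (2.03%) and cluster 19, led by Clec4e and Ms4a4c, held 55 of 1732 (3.18%). Most sham macrophages lay in cluster 14, led by Cd163, with 5 of 266. Gated on single cells, resident-type macrophages were mitotic in 11.5% of 599 (9.07 to 14.4; 42 near the limit), lipid-type cells in 3.93% of 3108 (3.27 to 4.67; 150 near it) and inflammatory monocytes in 4.59% of 218 (2.22 to 8.27; 27 near it). Macrophages given no state were mitotic in 6.72% of 357 (4.35 to 9.84; 175 near it). In sham, 4 of 232 resident-type cells were mitotic (1.72%, 0.472 to 4.36).

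The neutrophil lineage had high mitotic levels in both libraries. The summed level was 2036 CPM in the sham cells and 2014 in the tenotomy cells, a ratio of 0.99 (0.94 to 1.05). Of the 36 genes, 1 was at least 2-fold higher, against 7.11% of all genes, and 1 was 2-fold lower, against 4.42%. Plk1 was the higher gene, 9.97 and 20.6 CPM (2.07, 0.982 to 5.01), and Ccnb1 the lower, 57.3 and 27.0 CPM (0.471, 0.322 to 0.694). The number higher ranged from 0 to 15 over other ways of drawing or scaling the class, for which the share of all genes was not computed. Top2a stood at 218 and 239 CPM, Smc4 at 219 and 234, and Cks2 at 432 and 403. Cluster 27, led by the granule genes Camp, Ngp and Ltf of granulocyte precursors, was mitotic in 11 of 47 sham cells (23.4%) and 77 of 301 tenotomy cells (25.6%).

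B lineage cells had 16 of 28 measured genes at least 2-fold higher, against 10.8% of all genes, and none 2-fold lower, against 4.7%. Their summed level was 1410 CPM in the sham cells and 3136 in the tenotomy cells (2.22-fold, 2.01 to 2.46). Top2a stood at 220 and 439 CPM (1.999-fold, 1.54 to 2.62), Mki67 at 273 and 406 CPM (1.49-fold) and Cenpa at 170 and 281 CPM (1.66-fold). Ccnb2, the second mitotic cyclin, stood at 15.7 and 111 CPM (7.05-fold, 2.92 to 22.2). Ndc80, Bub1b and Kif11 were lower after tenotomy by less than 2-fold, at ratios of 0.624, 0.821 and 0.840. Precursor transcripts such as Vpreb1 marked 107 of 274 tenotomy and 15 of 56 sham cells. These cells were mitotic in 31 of 107 tenotomy cells (29.0%) and 0 of 15 sham cells. Mature B cells were mitotic in 6 of 144 and 1 of 36, and B lineage cells given no state in 5 of 23 and 1 of 5.

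Erythroid cells had the highest mitotic levels of any class in tenotomy, with a summed level of 9331 CPM against 135 CPM in 24 sham cells, too few for gene counts. The class differed in make-up between libraries: the median erythroid marker of 8 was detected in 22.9% of the sham cells but 95.04% of the tenotomy cells, and the part of this in the difference was not tested. Mki67 had 1230 UMIs in 131 tenotomy cells and none in sham. Ube2c, which ubiquitinates cyclins with the anaphase promoting complex, stood at 65.1 CPM in the sham cells and 1365 in the tenotomy cells (20.9-fold, 12.2 to 39.5). With 0.862% of all tenotomy UMIs in kept cells, the class held 6.78% of the mitotic gene UMIs. Muscle stem cells held 23.6% with 9.81% of all UMIs, and mesenchymal progenitors 35.8% with 34.9%.

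Pericytes or smooth muscle cells had 5 of 7 measured genes at least 2-fold higher, against 5.33% of all genes, with 8.05% lower, and a summed level of 45.1 and 302.5 CPM (6.71-fold, 5.27 to 8.63). Mki67 had 1 sham and 31 tenotomy UMIs, a ratio of 54.9 (9.15 to 2239). Tenocytes had 2 of 4 measured genes higher, Cks2 and Cenpa, against 6.1% of all genes, with 9.88% lower. Their summed level was 20.8 and 87.2 CPM (4.198-fold, 3.18 to 5.57). In myofibre-like cells 0 of the 36 genes had enough UMIs to be measured, where 13.7% of the measured genes were 2-fold higher and 9.52% lower.

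**Figure D3:**
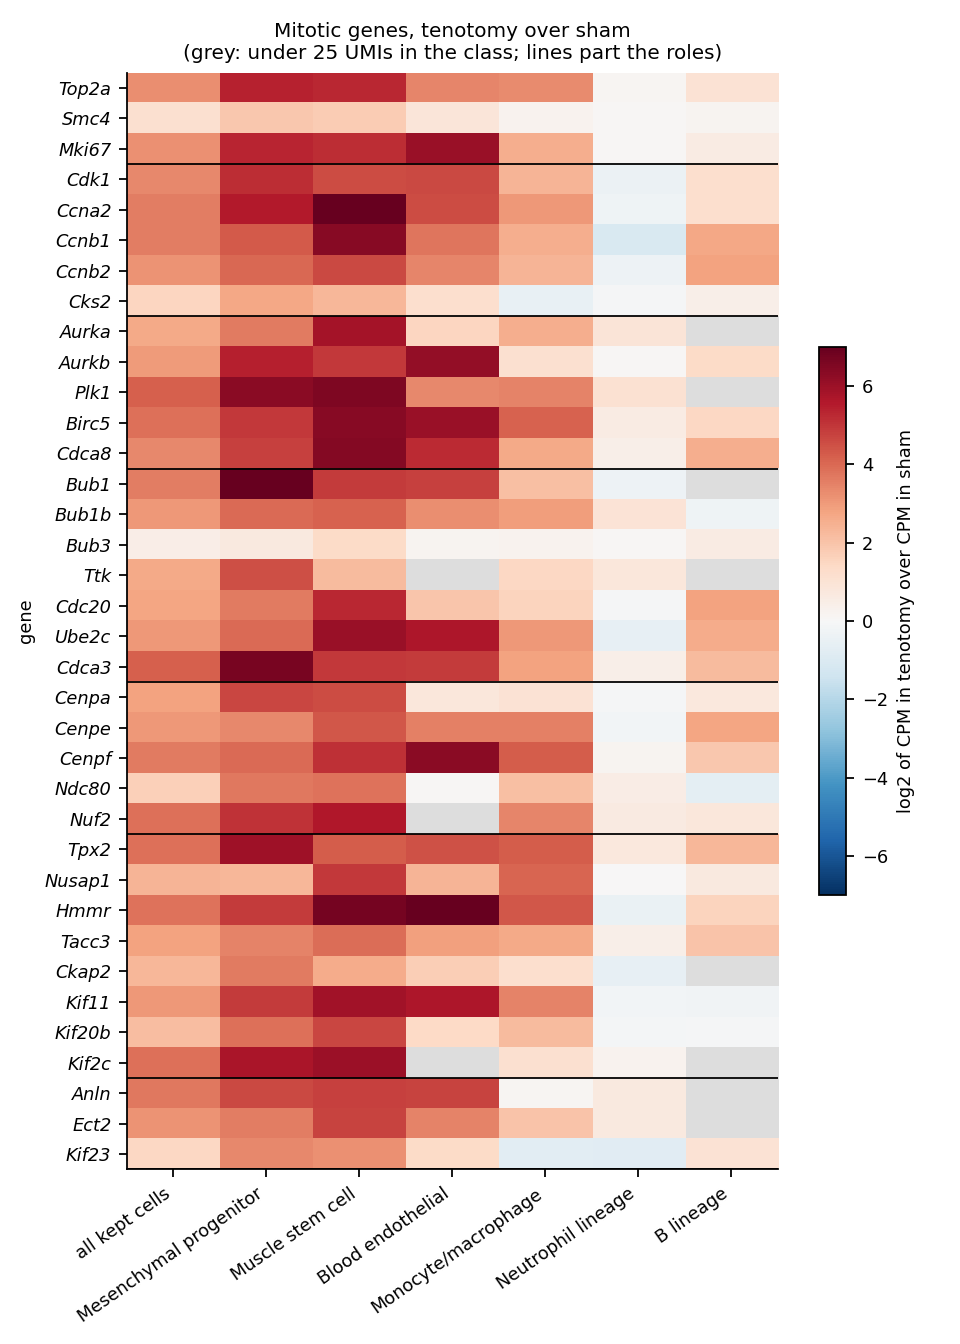
Log2 of CPM in tenotomy over CPM in sham for each of the 36 genes (rows, grouped by role); grey marks genes under 25 UMIs. Columns are all kept cells, mesenchymal progenitors, muscle stem cells, blood endothelial cells, monocytes and macrophages, the neutrophil lineage and the B lineage. The tenocyte, pericyte or smooth muscle and myofibre classes are not drawn. Muscle stem cells are higher for all 36 genes, while the neutrophil lineage has 1 gene at least 2-fold higher and 1 lower.

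The mitotic cells of 5 tenotomy classes with at least 50 such cells were then described. Since the genes chose these cells, the make-up of their transcripts is a description only. The share that each gene took of the 36 genes' UMIs was alike between classes, with Pearson's r from 0.869 to 0.952 across 36 genes on a log scale. Genes are not independent replicates, and these cells share a library. Differences remained in single genes. Mki67 made up 14.6% of the UMIs in erythroid cells and 6.02% in mesenchymal progenitors, and Ube2c 12.3% in erythroid cells and 6.82% in muscle stem cells. Top2a was highest in muscle stem cells (10.7%) and Cks2 in the neutrophil lineage (9.93%), against 3.22% in macrophages. Anln ranged most, from 0.707% in the neutrophil lineage to 2.89% in mesenchymal progenitors.

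**Figure D4:**
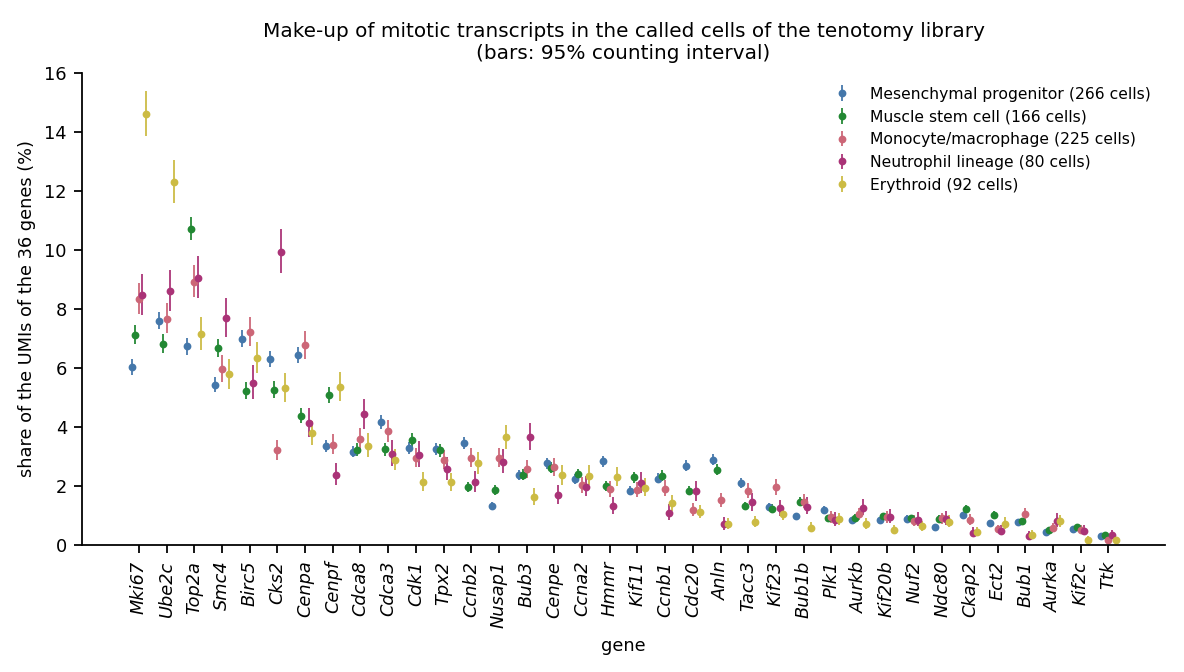
Share of the UMIs of the 36 genes taken by each gene (vertical axis, %) in mitotic cells of 5 tenotomy classes, with 95% counting intervals. Mki67 and Ube2c stand highest in erythroid cells, at 14.6% and 12.3%, and Cks2 in the neutrophil lineage at 9.93%.

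Other cell cycle genes, none of which the call used, were compared between mitotic and other cells of the same tenotomy class. The other cells include some with mitotic transcripts that thinning removed. Before thinning, 44.9% of mesenchymal progenitors, 57.5% of muscle stem cells and 32.7% of macrophages held at least 2 UMIs of the 31 genes. The part of this in the ratios of each class was not tested. Of 55 further mitotic genes, 54 of 55 measured were at least 2-fold higher in mesenchymal progenitors, against 3.95% of all genes, and 54 of 55 in muscle stem cells, against 6.26%. The counts were 52 of 54 in macrophages (9.58% of all genes), 40 of 43 in the neutrophil lineage (18.7%) and 41 of 42 in erythroid cells (53.6%). The shares of all genes 2-fold lower were 4.69% in mesenchymal progenitors, 4.99% in muscle stem cells, 4.26% in macrophages, 16.7% in the neutrophil lineage and 6.7% in erythroid cells. Of 38 S phase genes, 24 of 38 were higher in mesenchymal progenitors, 31 of 38 in muscle stem cells and 34 of 38 in macrophages. Mitotic cells were deeper, with medians of 24586 against 13581 UMIs in mesenchymal progenitors and 20578 against 10728 in muscle stem cells, and the part of depth in these ratios was not tested. Genes outside the 36 with the highest smallest ratio over the 5 classes were Knl1, a kinetochore scaffold (11.9), Prc1, which bundles the central spindle (11.6), and Ncaph, a condensin subunit (7.73). The first 15 also held Aspm, Hist1h2ab and Neil3, which were on none of the lists.

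Of the listed regulators, 9 of 30 measured were higher in mesenchymal progenitors, 9 of 30 in muscle stem cells and 14 of 30 in macrophages, against 3.95%, 6.26% and 9.58% of all genes. In the neutrophil lineage 10 of 26 were higher and 2 lower (18.7% and 16.7% of all genes), and in erythroid cells 13 of 15 were higher (53.6%). Foxm1, the transcription factor that drives G2 and M genes, was 5.98 times as high in mitotic mesenchymal progenitors (4.78 to 7.49), 8.20 times in muscle stem cells and 39.2 times in macrophages. Mybl2, the B-Myb partner of the MuvB complex, was 3.81, 3.14 and 13.1 times as high. Of the inhibitors of cyclin-dependent kinases, Cdkn2c was 4.16, 3.04 and 11.4 times as high, while Cdkn1a, the p21 gene, stood at ratios of 0.734, 0.588 and 0.693. Cdkn1c, the p57 gene, stood at 2237 CPM in other muscle stem cells and 374 CPM in mitotic ones, a ratio of 0.167 (0.158 to 0.177).

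Genes of cell identity differed along the same division. In mitotic muscle stem cells Myog, which drives differentiation, was at 0.215 of its level in other cells, the embryonic myosin Myh3 at 0.0329 and the fusion gene Mymk at 0.0993. Pax7, the stem cell factor, stood at 56.5 against 49.9 CPM (1.13, 0.938 to 1.36) and Myod1 at a ratio of 0.923. Other stem-type genes differed in both directions, with Chrdl2 at 0.182 (0.109 to 0.288), Spry1 at 0.537, Msc at 0.635 and Hes1 at 1.83. In macrophages the resident-type genes Lyve1 and Timd4 had ratios of 2.70 and 4.42, and the lipid-type genes Gpnmb, Spp1 and Fabp5 had 0.262, 0.401 and 0.384. These were the extremes of their lists. The other resident-type genes ranged from 1.16 (F13a1) to 1.74 (Cbr2), and the other lipid-type genes from 0.647 (Lgals3) to 0.804 (Trem2). In mesenchymal progenitors Postn and Tnc stood at 0.978 and 1.04, while Clec3b, Pi16 and Gdf10 stood at 0.247, 0.302 and 0.173. The last 3 were the lowest of their lists. Other Pi16/Dpp4 genes ranged from Cd55 at 0.430 to Fn1 at 0.868, Anxa3 at 0.998 and Ugp2 at 1.05. Other Smoc2/Cxcl14 genes ranged from Sfrp4 at 0.315 to Cxcl14 at 0.734. Other class markers ranged from Dcn at 0.503 to Pdgfra at 0.916, Col1a1 at 0.947 and Mfap5 at 0.986.

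**Figure D5:**
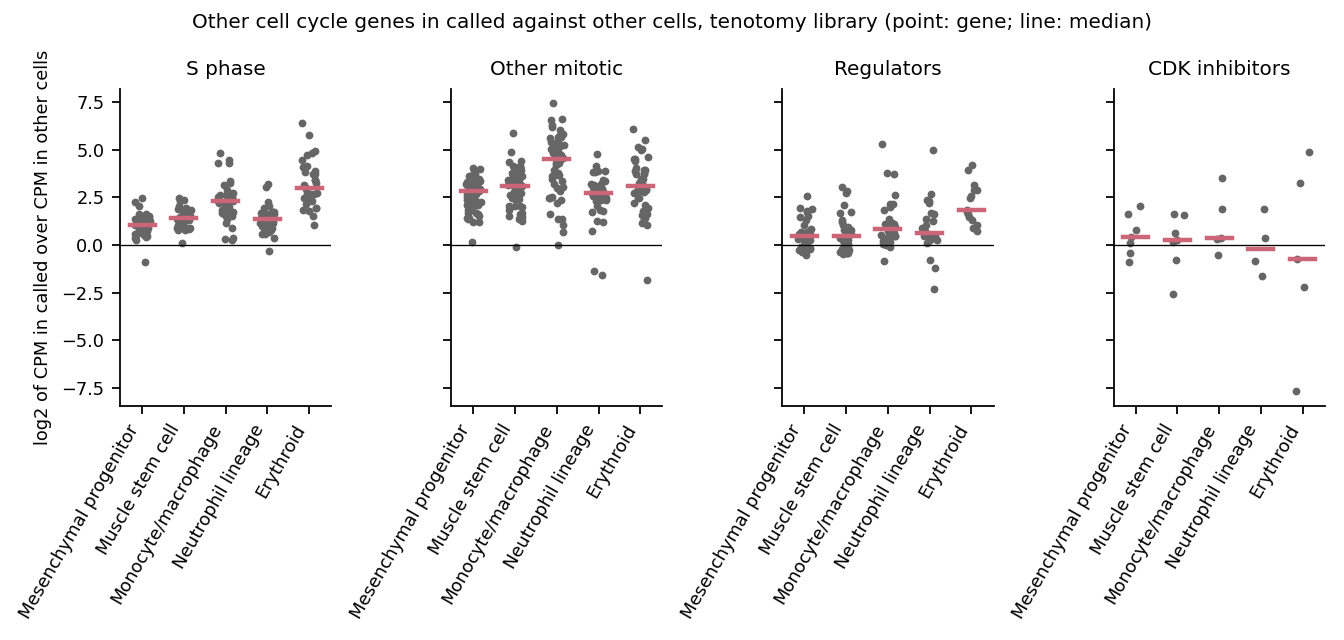
Log2 of CPM in mitotic over other cells of the same tenotomy class for S phase genes, other mitotic genes, regulators and kinase inhibitors; each point is 1 gene. Most other mitotic genes lie above 2-fold in each of the 5 classes, and 9 of 30 regulators do so in mesenchymal progenitors.

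Cells with S phase transcripts overlapped with mitotic cells to a different extent by class. With at least 3 UMIs of the S phase list after thinning, 60.2% of mitotic muscle stem cells (100 of 166) and 65.8% of mitotic endothelial cells (25 of 38) also carried S phase transcripts. In mesenchymal progenitors 28.6% (76 of 266) and in macrophages 36.4% (82 of 225) did so. Tenotomy cells without the call carried S phase transcripts in 45 of 354 muscle stem cells and 106 of 1328 endothelial cells. For mesenchymal progenitors the count was 87 of 1484, and for macrophages 165 of 4057. The part of these unequal base rates in the overlap was not tested. Among endothelial cells, 6.00% in sham and 7.76% in tenotomy met the S phase limit without the mitotic call. For mesenchymal progenitors these shares were 1.64% and 4.97%. In sham endothelium 190 of 3167 cells met the limit, but none of the 5 mitotic cells did. In sham tenocytes 13 of 407 cells met it, and no cell was mitotic. Expression of the S phase list in resting cells was not tested, so these shares do not measure cells in S phase.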

How the data were processed

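Living mononuclear cells of pooled plantaris muscle were profiled in 1 sham and 1 tenotomy library. The authors deposited raw counts, that is UMIs per gene and barcode. Cell Ranger 4.0.0 and mm10 are named in the submitters' processing notes. No source used here names the annotation behind the counts. Cells were kept with at least 300 genes, 500 UMIs and at most 10% mitochondrial UMIs, and barcodes scored as doublets by scrublet in scanpy 1.11.5 were removed. The automatic score limit of the tenotomy library, 0.213, was applied to both libraries. The automatic limit of the sham library itself marked only 1 sham barcode. Leiden clusters (resolution 1, 30 components, 15 neighbours) were made without cell cycle genes and named from marker lists, with limits for naming set after the scores were seen. Cells were thinned to 1000 UMIs, which left out 252 sham and 479 tenotomy cells. CPM is the UMIs of a gene per 1000000 UMIs of its class. With 1 library per group no test was made. Intervals are exact (Clopper-Pearson for shares, Poisson for counts, conditional binomial for folds; scipy 1.17.1) at 95%, apart from a log-scale interval for ratios of shares. A level of 0 was taken at 3 UMIs. Called means at least 2-fold apart, in classes of at least 50 cells per library. The plan set full values for the 3 genes with the highest tenotomy CPM and the 3 with the largest and smallest fold in a class. The text prints only part of these. Outside the list the rule took the 15 genes with the highest smallest ratio, and the extremes of each list. Further genes were named for their role after their values were seen. The fold calculation was tested on simulated data. The mitotic genes and all lists were chosen with earlier results of these data known.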

Additional observations from a re-analysis of the deposited data

Results flagged for a closer look

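Dendritic-like cells went the other way from most classes. Their summed level of the 31 genes after tenotomy was 0.339 of the sham level (0.311 to 0.370), while 10 other classes had intervals wholly above 1. The difference between classes was not tested, and the sham class had 28 cells with 691 UMIs of these genes. That class depended on how it was drawn: it held 0 sham cells with clusters made with cell cycle genes, 7 (162 UMIs) at Leiden resolution 2 and 11 (148 UMIs) with the marker gate.

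Barcodes removed as doublets were not part of any comparison. Of those with at least 1000 UMIs, 41 of 280 in tenotomy carried the mitotic call (14.6%, 10.7 to 19.3), against 0.541% (1 of 185) in sham.

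In the unnamed clusters 15 of 286 tenotomy cells carried the call (5.24%, 2.96 to 8.50), against 0.265% (1 of 377) in sham.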

How the results depend on the processing

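Of 140 recomputed main results, 110 stayed within their interval or within 1.5 times the count, and 30 moved. Of 414 others, 327 stayed so, 86 moved and 1 reversed. The erythroid class ranked first and muscle stem cells second in every setting tried, and the third place varied. With cells thinned to 2000 UMIs, which leaves out cells under that depth, the ratio of mitotic shares was 6.72 in endothelial cells. In the neutrophil lineage it was 2.25, against 0.913 as reported. With at least 3 UMIs for the call it was 34.9 over all cells, 11.1 in macrophages and 1.87 in the neutrophil lineage. With at least 1 UMI it was 4.40 over all cells, 10.7 in mesenchymal progenitors, 14.9 in muscle stem cells, 1.95 in endothelial cells and, reversed, 0.962 in B lineage cells. With all 36 genes it was 5.43 over all cells, 28.4 in mesenchymal progenitors and 2.12 in endothelial cells. Another random draw gave 290 in mesenchymal progenitors. The count of genes 2-fold higher in the neutrophil lineage was 7 with a mitochondrial limit of 20% and 7 with at least 1000 UMIs per cell. It was 3 with clusters made with cell cycle genes, 6 at Leiden resolution 2, 15 with the marker gate and 9 with mean CPM over cells. It was 0 after division by the median fold, 0 with at least 100 UMIs, 0 with the interval beyond 2-fold and 0 without mitotic cells. In macrophages it was 6 with clusters made with cell cycle genes, 7 with the gate, 20 with the interval, 13 without mitotic cells and 10 joined with dendritic cells. In endothelial cells it was 13 of 16 with at least 100 UMIs and 10 of 22 without mitotic cells. No share of all genes was computed beside these recomputed counts, so a shift of the whole class cannot be told apart. Settings with another draw, without Cenpa, without mitotic cells, without the erythroid, neutrophil and B lineage classes and with the joined class were chosen after seeing the data. The cause of these changes was not tested. The few sham cells of the erythroid (24), dendritic (28) and B lineage (56) classes limit those comparisons. No paired analysis was possible because each group has 1 library.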
